A study of Mus musculus with 18 samples.

Results

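Gabpa, Bach1 and Usp16 are mouse genes of distal chromosome 16 that encode nuclear regulators. All 3 are present in 3 copies in Ts65Dn mice and in 2 copies in Ts1Cje mice and diploid controls. Their probes were taken from the array by gene number for Gabpa and Bach1, and for Usp16 by the name of the RIKEN clone from which its probe was designed. This gave 4 probes for 3 genes, of 46657 probes on the array and 8679 genes that could be named. On the GRCm38.p6 annotation Gabpa lies at chr16:84834891-84863783, Usp16 at chr16:87454985-87483515 and Bach1 at chr16:87698954-87733346. The files do not state in which exon or on which strand a probe lies, and the probe sequences were not used here. The first bases of Gabpa overlap the neighbouring Atp5j, and the last bases of Usp16 overlap Cct8, so signal from an overlapping gene cannot be told apart at those ends.

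The study measured RNA on 18 Illumina MouseWG-6 v1.1 arrays, 1 array per sample, from preparations of juvenile mice enriched for male germ cells. There were 6 groups of 3 biological replicates: Ts65Dn, Ts1Cje and WT at 19-20 days post partum (dpp), and the same genotypes at 16-17 dpp. Ts65Dn carries an additional marker chromosome with distal chromosome 16 and a proximal piece of chromosome 17. Ts1Cje carries a shorter distal part of chromosome 16 translocated to chromosome 12, and WT were diploid wild-type littermates. These karyotypes are background knowledge, as the labels name the lines only. The labels give neither the strain, the trisomy line of which WT were littermates, nor whether animals were pooled. In these mice the first wave of spermatogenesis is under way, and the most advanced germ cells pass from pachytene spermatocytes towards round spermatids between the ages sampled.

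GABPA is the DNA-binding subunit of GABP, an ETS-family transcription factor that works as a complex with a GABPB subunit and binds promoters of nuclear genes for mitochondrial and ribosomal proteins, among others. BACH1 is a bZIP repressor that pairs with small MAF proteins at antioxidant response elements, competes there with NRF2 family activators, and leaves DNA when heme binds it. USP16 is a deubiquitinase that removes ubiquitin from histone H2A, the mark set by Polycomb repressive complex 1, and is known for roles in cell division and gene activation.

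The promoters of the 3 genes are shown because the genes share a chromosome segment and a copy number but not the same behaviour across the groups. Each is the 300-base RefSeq window of GRCm38.p6, plus strand, from 250 bases before to 50 bases after a start site. That site is the first base of the gene for Bach1 and Usp16, and for Gabpa it is base 84835124, which lies downstream of the first base of the gene as annotated above. The windows are chr16:84834874-84835173 for Gabpa, chr16:87698704-87699003 for Bach1 and chr16:87454735-87455034 for Usp16. Capitals mark the ETS core CCGGAAG or its reverse complement CTTCCGG in Gabpa and Usp16, and the GC box GGGCGG in Bach1.
Gabpa: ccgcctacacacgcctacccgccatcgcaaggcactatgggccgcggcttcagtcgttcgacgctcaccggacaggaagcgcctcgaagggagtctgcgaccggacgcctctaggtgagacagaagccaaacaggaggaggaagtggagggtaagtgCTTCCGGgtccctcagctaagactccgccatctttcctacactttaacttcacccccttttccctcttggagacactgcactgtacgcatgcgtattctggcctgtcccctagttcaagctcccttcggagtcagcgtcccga
Bach1: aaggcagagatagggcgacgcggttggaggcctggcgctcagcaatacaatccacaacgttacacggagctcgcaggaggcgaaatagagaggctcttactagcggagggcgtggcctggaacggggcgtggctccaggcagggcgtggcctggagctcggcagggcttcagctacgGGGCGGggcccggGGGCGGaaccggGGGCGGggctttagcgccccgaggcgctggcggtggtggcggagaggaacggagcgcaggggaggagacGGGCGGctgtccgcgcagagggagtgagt
Usp16: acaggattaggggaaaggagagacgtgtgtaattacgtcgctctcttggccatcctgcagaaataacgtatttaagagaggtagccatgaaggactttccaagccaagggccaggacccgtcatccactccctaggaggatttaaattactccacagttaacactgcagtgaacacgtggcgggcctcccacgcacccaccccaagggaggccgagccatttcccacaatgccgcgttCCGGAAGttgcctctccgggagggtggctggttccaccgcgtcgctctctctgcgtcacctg
The Gabpa window held 1 ETS core, read on the minus strand with its leftmost base at position −93, counting the start site of the window as 1 with no position 0. The Usp16 window held 1 ETS core on the plus strand at −12. The Bach1 window held none, and instead had 4 GC boxes, at −73, −60, −48 and 22. No antioxidant response element, searched as TGACNNNGC, was in any of the 3 windows, and no GC box was in those of Gabpa and Usp16. Searched on both strands of all 32851 promoter windows of the table, the ETS core was in 8.86%, the GC box in 35.7% and the antioxidant response element in 12.4%. The Gabpa window also overlaps the promoter window of Atp5j. The GC content was 59.3% for Gabpa, 69.7% for Bach1 and 56.3% for Usp16.

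Between 17102 and 19784 probes were detected per array (detection p under 0.05), and the median raw signal ran from 179.4 to 225.2. One array stood apart. Ts1Cje 19-20 dpp replicate 1 had the fewest detected probes, the lowest of the 18 array weights (0.124) and the lowest best correlation with any other array (0.972). Contrasts of the 3 genes that rest on it are given with and without it. Marker sums and the likeness between genes are given only with it. The 3 pachytene to diplotene markers that could be tested (Aurkc, Clgn and Zpbp) were detected on all 18 arrays, as were 2 of the 5 round spermatid markers (Odf2 and Zpbp2). No pan-germ-cell or meiotic prophase marker of the lists (Ddx4 or Sycp3, for example) was named by a tested probe. Somatic markers were present in part. Of those tested, 1 of 2 for Sertoli cells (Wt1), 2 of 3 for peritubular cells (Acta2 among them), 1 of 6 for Leydig cells (Star), 0 of 4 for macrophages and 0 of 2 for endothelium were detected on all 18 arrays. The macrophage marker C1qa was detected on 1 of 3 Ts65Dn arrays at 19-20 dpp and on all other arrays.

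Late germ cell markers differed between the genotypes at 19-20 dpp. The summed intensity of the 5 round spermatid markers was 8677 to 17066 in Ts65Dn, against 19710 to 47374 in Ts1Cje and 20219 to 36545 in WT. At 16-17 dpp the sums overlapped, at 2520 to 3481 in Ts65Dn, 1795 to 6419 in Ts1Cje and 2574 to 6982 in WT. The 3 spermatogonial markers summed to 2709 to 3528 in Ts65Dn at 19-20 dpp, against 1196 to 1992 in Ts1Cje and 1943 to 2302 in WT. Spata20 was called lower in Ts65Dn than in WT at 19-20 dpp, by −2.40 on the log2 scale (limma, adjusted p = 0.0454, detected on 1 of 3 Ts65Dn and 3 of 3 WT arrays), and so was Aurkc, by −1.31 (adjusted p = 0.0432). The other tested markers of the 5 for round spermatids and 3 for pachytene to diplotene were below 0 and not called. Of 21341 tested probes 644 were called lower in this comparison. Some somatic sums did not overlap either. The 2 Sertoli markers summed to 14540 to 15940 in Ts65Dn at 16-17 dpp, above the 6572 to 13573 of Ts1Cje and the 9542 to 11840 of WT, and they overlapped between genotypes at 19-20 dpp. The 3 peritubular markers summed to 3431 to 5379 in Ts65Dn at 19-20 dpp, above the 1084 to 1963 of Ts1Cje, and overlapped the 1098 to 5723 of WT. Of these 3, Acta2 was called higher than in Ts1Cje, by 2.08 (limma adjusted p = 0.0295), as were 7.30% of all probes. The 4 macrophage markers summed to 300.1 to 369.2 in Ts65Dn at 19-20 dpp, below the 388.3 to 2248 of Ts1Cje and the 466.5 to 920.1 of WT. Limma called no Sertoli marker in Ts65Dn against either genotype at 16-17 dpp, and no macrophage marker at 19-20 dpp. The macrophage marker Cd68 was 0.22 higher in Ts65Dn than in WT there. Of single probes, 13.9% stood above all other genotypes without overlap at 19-20 dpp and 10.1% below. At 16-17 dpp 3.29% stood above. The part of these marker differences in the results for Gabpa, Bach1 and Usp16 was not tested. In bulk samples fewer cells of a type and less RNA per cell cannot be told apart.

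Every Ts65Dn array had a higher Gabpa level than every array of the other genotypes of its age. Of all tested probes 13.9% stood above the other genotypes in this way at 19-20 dpp and 3.29% at 16-17 dpp. Levels are log2 values of background-corrected, quantile-normalised intensity. At 19-20 dpp they were 10.90, 11.41 and 11.57 in Ts65Dn, 10.25, 10.25 and 10.06 in Ts1Cje and 10.10, 10.46 and 10.32 in WT. The lowest Ts65Dn array stood above the highest of the other 6, and Ts1Cje and WT overlapped. At 16-17 dpp they were 11.82, 11.53 and 11.56 in Ts65Dn, 11.09, 11.19 and 10.84 in Ts1Cje and 10.77, 11.33 and 11.08 in WT. Here too every Ts65Dn array was above all 6 others, with the highest WT array 0.21 below the lowest Ts65Dn array. The order of the group means was Ts65Dn 16-17 dpp (11.64 ± 0.16, SD, n = 3), Ts65Dn 19-20 dpp (11.29 ± 0.35), WT 16-17 dpp (11.06 ± 0.28), Ts1Cje 16-17 dpp (11.04 ± 0.18), WT 19-20 dpp (10.30 ± 0.18) and Ts1Cje 19-20 dpp (10.19 ± 0.11). Neighbours in this order overlapped in their arrays, apart from Ts1Cje 16-17 dpp and WT 19-20 dpp. The other Gabpa probe was not detected on any of the 18 arrays, where its levels ran from 5.69 to 6.57, and it was left out of the main fit. Its values in a fit of all probes are given at the end.

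For Bach1, too, every Ts65Dn array was above all others of its age, at a signal nearer to background. At 19-20 dpp its levels were 7.83, 8.51 and 7.97 in Ts65Dn, 6.18, 7.15 and 6.86 in Ts1Cje and 6.63, 7.11 and 6.87 in WT. The lowest Ts65Dn array stood 0.68 above the highest of the 6 others. Of these, Ts1Cje replicate 1 and WT replicate 1 were not detected, so Bach1 was above background on 2 of 3 arrays in each of those groups (detection p under 0.05). At 16-17 dpp the levels were 8.97, 8.87 and 8.61 in Ts65Dn, 8.00, 8.53 and 7.73 in Ts1Cje and 7.89, 8.11 and 8.07 in WT. Ts1Cje and WT overlapped, and the highest Ts1Cje array came within 0.08 of the lowest Ts65Dn array. The group means ran from 8.81 ± 0.18 in Ts65Dn at 16-17 dpp and 8.10 ± 0.36 in Ts65Dn at 19-20 dpp through Ts1Cje (8.09 ± 0.41) and WT (8.02 ± 0.11) at the earlier age down to WT (6.87 ± 0.24) and Ts1Cje (6.73 ± 0.50) at the later age. The second to the fourth group means differed by less than the spread between arrays.

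Usp16 showed another pattern. At 19-20 dpp its levels were 8.91, 8.68 and 8.71 in Ts65Dn, 10.13, 9.15 and 9.13 in Ts1Cje and 9.11, 8.94 and 9.31 in WT. All 3 Ts65Dn arrays were below all 6 others, by 0.03 at the closest pair, as were 10.1% of all tested probes, and the difference was called against neither genotype by limma. The high Ts1Cje value was that of replicate 1. At 16-17 dpp the levels were 8.63, 8.80 and 9.04 in Ts65Dn, 8.79, 8.39 and 8.12 in Ts1Cje and 9.01, 8.23 and 8.13 in WT, and the 3 genotypes overlapped. The order of the group means was Ts1Cje 19-20 dpp (9.47 ± 0.57), WT 19-20 dpp (9.12 ± 0.19), Ts65Dn 16-17 dpp (8.82 ± 0.21), Ts65Dn 19-20 dpp (8.77 ± 0.13), WT 16-17 dpp (8.46 ± 0.48) and Ts1Cje 16-17 dpp (8.43 ± 0.34). Both Ts65Dn means lay between those of the other genotypes at the later and the earlier age. It was detected on all 18 arrays.

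**Figure D1:**
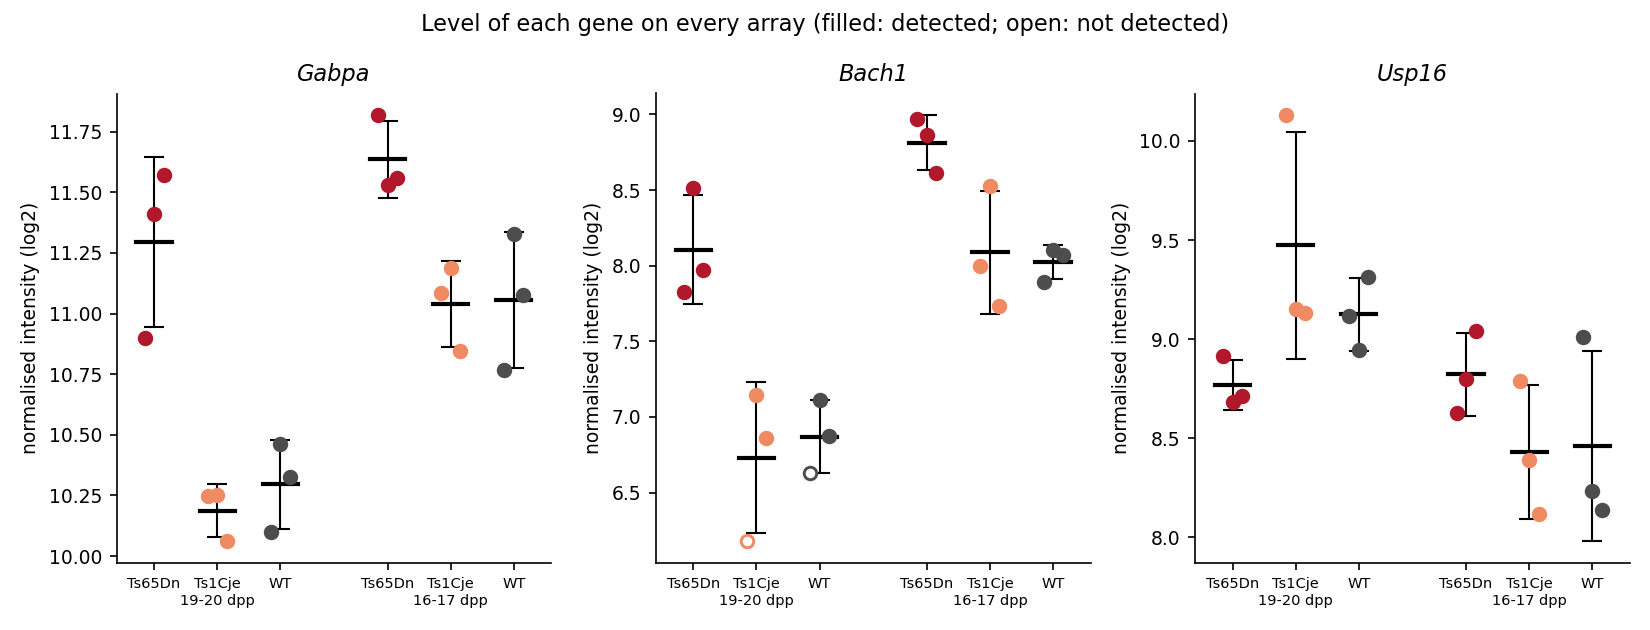
Normalised log2 intensity of Gabpa, Bach1 and Usp16 on each of 18 arrays by genotype and age, with the mean (thick bar) and SD (whiskers) of 3 arrays. Each filled point is an array on which the probe was detected, and the 2 open points of Bach1 were not detected. Ts65Dn arrays stand above all others of their age for Gabpa and Bach1, and for Usp16 they stand below them at 19-20 dpp.

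With both ages together, Ts65Dn was set against the mean of WT and Ts1Cje, which both have 2 copies. Gabpa was 0.82 higher in Ts65Dn on the log2 scale (SE 0.12, 95% interval 0.57 to 1.07), a fold of 1.77 (1.48 to 2.10), and limma called it at an adjusted p of 0.0137. Bach1 was 1.03 higher (SE 0.16, interval 0.69 to 1.37), a fold of 2.04 (1.62 to 2.59), and was called as well (limma, adjusted p = 0.0150). Over all 21341 tested probes 2.25% were called higher in this comparison, and the median difference was 0.05. By unadjusted p Gabpa ranked 7 and Bach1 14 among those probes. Usp16 was −0.08 (SE 0.17, interval −0.44 to 0.29) and not called (limma, adjusted p = 0.764). A ratio of 1.5, that of 3 copies to 2, is 0.58 on the log2 scale. With both ages together that value lay inside the interval of Gabpa, below that of Bach1 and above that of Usp16. By age the placing differed. At 16-17 dpp the value lay inside the intervals of all 3 genes against either genotype (Usp16 −0.23 to 0.96 against WT and −0.20 to 0.99 against Ts1Cje). At 19-20 dpp it lay below those of Gabpa (0.59 to 1.41 and 0.70 to 1.52) and Bach1 (0.68 to 1.79 and 0.82 to 1.93), and above both of Usp16. Bach1 depended on the background correction: without it, the difference was 0.62 (limma adjusted p = 0.0193), while that of Gabpa was 0.76 (adjusted p = 0.00906). An exact two-sided permutation test within each age, over all 7056 assignments, gave p = 0.000142 for Gabpa and for Bach1, the smallest it can give, and p = 0.728 for Usp16. These 3 values are not adjusted. For Gabpa and Bach1 the permutation p follows from the lack of overlap at both ages and is not separate support. The test left the replicate numbers out of account. Without Ts65Dn 19-20 dpp replicate 2 the limma calls were lost (adjusted p = 0.0625 for Gabpa and 0.0706 for Bach1), and Bach1 was also not called without Ts65Dn 16-17 dpp replicate 2 (adjusted p = 0.0558). Without Ts1Cje 19-20 dpp replicate 1 the differences were 0.83 for Gabpa, 0.96 for Bach1 and 0.01 for Usp16.

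**Figure D2:**
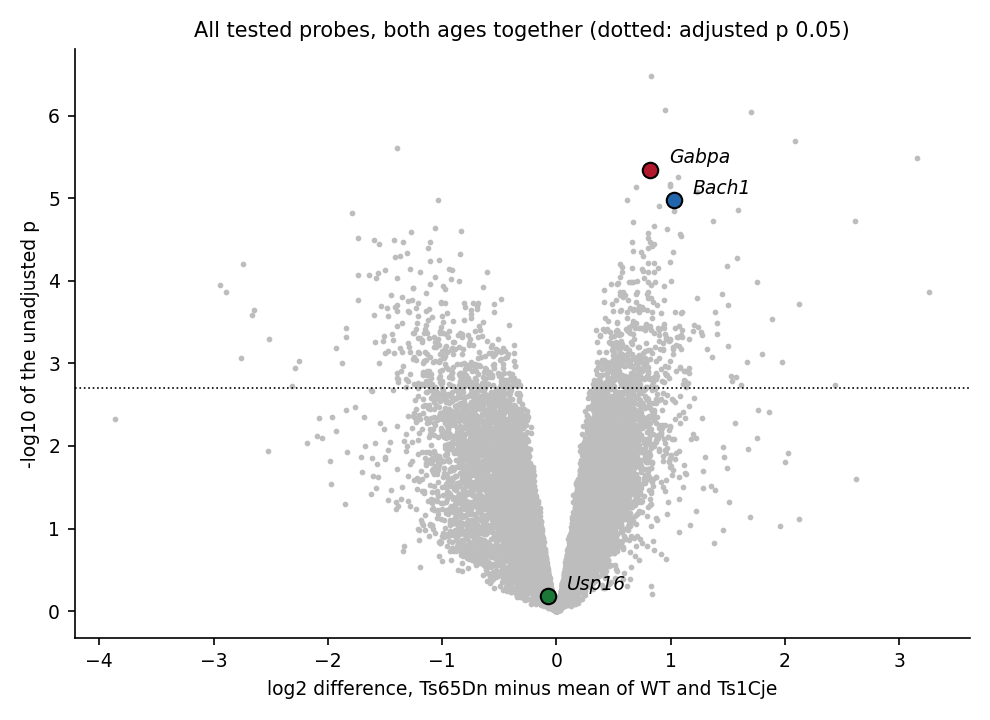
All 21341 tested probes in Ts65Dn minus the mean of WT and Ts1Cje over both ages, as log2 difference (x axis) and −log10 of the unadjusted limma p (y axis). Gabpa at 0.82 and Bach1 at 1.03 lie among the probes with the smallest p, and Usp16 at −0.08 lies at the foot of the plot.

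At 19-20 dpp the differences of Gabpa and Bach1 were called against each genotype. Against WT, Gabpa was higher in Ts65Dn by 1.00 (SE 0.19, limma adjusted p = 0.0183) and Bach1 by 1.23 (SE 0.26, adjusted p = 0.0263), where 1.80% of all probes were called higher. Against Ts1Cje, Gabpa was higher by 1.11 (SE 0.19, limma adjusted p = 0.00791) and Bach1 by 1.37 (SE 0.26, adjusted p = 0.00983), where 7.30% of probes were called higher. Without background correction Bach1 was 0.68 higher than in WT (limma adjusted p = 0.0343) and 0.76 higher than in Ts1Cje (adjusted p = 0.0163). Usp16 was −0.36 against WT (SE 0.28, adjusted p = 0.369) and −0.70 against Ts1Cje (SE 0.28, adjusted p = 0.101), neither called by limma. At 19-20 dpp same-numbered arrays of these groups deviated together. With the replicate number as a block, fitted over both ages, Usp16 was called lower against Ts1Cje (−0.70, limma adjusted p = 0.0463). There 25.6% of all probes were called in either direction. With that block 13.0% of probes were called higher against WT and 15.5% against Ts1Cje, and Gabpa and Bach1 stayed called. Without Ts1Cje 19-20 dpp replicate 1 the differences from Ts1Cje were 1.14 for Gabpa (limma adjusted p = 0.0198), 1.10 for Bach1 (adjusted p = 0.0400) and −0.37 for Usp16 (adjusted p = 0.437). The calls against WT rest on few arrays: leaving out WT 19-20 dpp replicate 1 or 3, or Ts65Dn 19-20 dpp replicate 2 or 3, ended both, with adjusted p of 0.0523 to 0.126 for Gabpa and 0.0615 to 0.168 for Bach1. The calls against Ts1Cje ended without Ts65Dn 19-20 dpp replicate 2 (adjusted p = 0.0538 for Gabpa and 0.0669 for Bach1), and in a fit of those 2 groups alone (0.114 and 0.127). The median over all probes was 0.11 against WT and 0.09 against Ts1Cje.

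At 16-17 dpp none of the 3 genes was called. Against WT, Ts65Dn was higher by 0.58 for Gabpa (SE 0.19, unadjusted p = 0.00867, limma adjusted p = 0.484), 0.79 for Bach1 (SE 0.26, unadjusted p = 0.00831, adjusted p = 0.472) and 0.36 for Usp16 (SE 0.28, adjusted p = 0.807). Limma called 0.0187% of all probes higher here, which is 4 probes. Against Ts1Cje the differences were 0.60 for Gabpa, 0.73 for Bach1 and 0.39 for Usp16 (limma adjusted p = 0.862, 0.907 and 0.959). There 0% of all probes were called, while 1084 had an unadjusted p under 0.05.

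Ts1Cje and WT have the same copy number of these genes, and no difference between them was called. Ts1Cje minus WT at 19-20 dpp was −0.11 for Gabpa (95% interval −0.52 to 0.30), −0.14 for Bach1 (−0.70 to 0.41) and 0.35 for Usp16 (−0.25 to 0.94). Without Ts1Cje replicate 1 of that age it was −0.14 for Gabpa, 0.14 for Bach1 and 0.019 for Usp16, so the value of Usp16 and the sign of Bach1 rested on that array. At 16-17 dpp it was −0.02 for Gabpa (−0.43 to 0.39), 0.06 for Bach1 (−0.49 to 0.62) and −0.03 for Usp16 (−0.62 to 0.57). With all arrays the 6 values had a limma adjusted p of 1. In these comparisons 0% of all probes were called, at 19-20 and at 16-17 dpp alike, with 633 and 427 probes at an unadjusted p under 0.05.

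**Figure D3:**
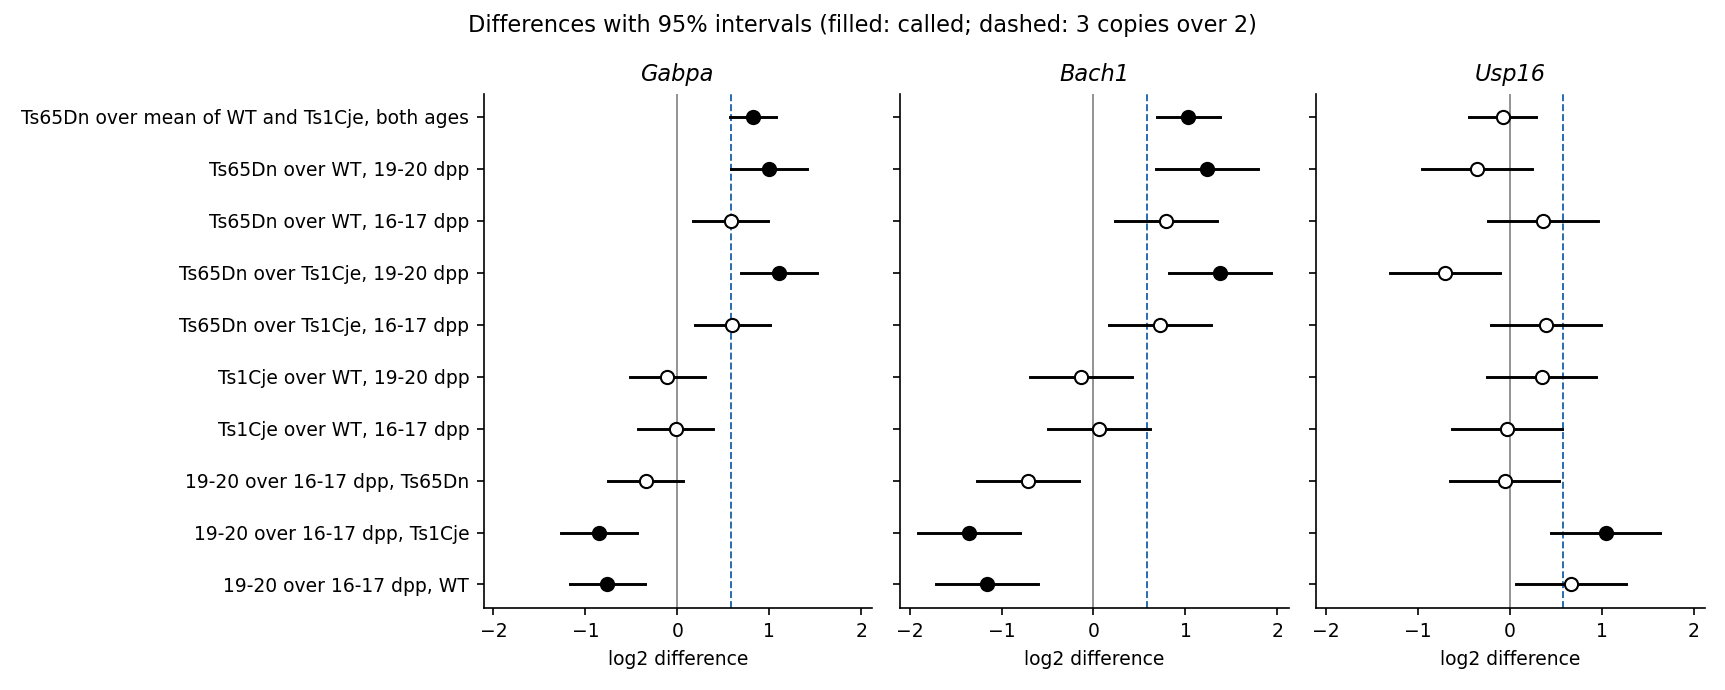
Log2 differences of the 3 genes with 95% intervals in 10 comparisons, from the limma fit of 18 arrays. Filled points are called at an adjusted p under 0.05, and the dashed line is the log2 of 3 copies over 2. Gabpa and Bach1 lie to the right of 0 in all 5 comparisons of Ts65Dn and near 0 in the 2 of Ts1Cje with WT.

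Gabpa and Bach1 fell with age in WT and Ts1Cje, and Usp16 rose in Ts1Cje. In WT, Gabpa fell by 0.76 between 16-17 and 19-20 dpp (SE 0.19, limma adjusted p = 0.00706) and Bach1 fell by 1.15 (SE 0.26, adjusted p = 0.00391), whereas Usp16 was 0.67 higher at 19-20 dpp (SE 0.28, adjusted p = 0.0616), which is not a call. Of all probes 28.1% were called lower and 18.5% higher in this comparison, so calls with age are common. In Ts1Cje, Gabpa fell by 0.85 (limma adjusted p = 0.00316), Bach1 fell by 1.36 (adjusted p = 0.00132) and Usp16 rose by 1.04 (SE 0.28, adjusted p = 0.00796), with 45.3% of all probes called in either direction. Without background correction the fall of Bach1 was −0.62 in WT (limma adjusted p = 0.00692) and −0.75 in Ts1Cje (adjusted p = 0.00214). Without Ts1Cje 19-20 dpp replicate 1 the rise of Usp16 was 0.71 (limma adjusted p = 0.0448), and the falls were −0.88 for Gabpa and −1.08 for Bach1. In Ts65Dn no member was called, with −0.34 for Gabpa (limma adjusted p = 0.239), −0.71 for Bach1 (adjusted p = 0.0900) and −0.05 for Usp16 (adjusted p = 0.914), where 8.70% of all probes were called. All 6 Leydig markers tested were below 0 in Ts65Dn over this interval. Limma called 4 of these markers lower, as it did 541 of 21341 probes. One of the 4, Cyp11a1, was detected on 0 of 3 arrays at 19-20 dpp and 3 of 3 at 16-17 dpp (limma adjusted p = 0.0263), and the part of these markers in the values above was not tested. The median over all probes was itself below 0, at −0.23 in WT, −0.21 in Ts1Cje and −0.09 in Ts65Dn. Usp16 in WT passed when WT 16-17 dpp replicate 1 was left out (0.94, limma adjusted p = 0.0146).

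Whether the change with age differed between genotypes was tested directly. The change in Ts65Dn minus that in WT was 0.42 for Gabpa (SE 0.27, limma adjusted p = 0.500), 0.44 for Bach1 (SE 0.37, adjusted p = 0.602) and −0.72 for Usp16 (SE 0.39, adjusted p = 0.419). The change in Ts1Cje minus that in WT was −0.09, −0.20 and 0.38 for Gabpa, Bach1 and Usp16, each with an adjusted p of 1.00; without Ts1Cje 19-20 dpp replicate 1 it was −0.12, 0.071 and 0.047. Of all probes 0% were called in either test, while 3082 and 604 had an unadjusted p under 0.05. Set against the mean of WT and Ts1Cje, a comparison added after the data were seen, the change with age in Ts65Dn differed by 0.46 for Gabpa (adjusted p = 0.274), 0.55 for Bach1 (adjusted p = 0.343) and −0.91 for Usp16 (SE 0.34, unadjusted p = 0.0180, limma adjusted p = 0.158), where 0.384% of all probes were called. Without the same array these were 0.48 for Gabpa, 0.41 for Bach1 and −0.74 for Usp16, with limma adjusted p of 0.282, 0.432 and 0.157. The larger differences of Gabpa and Bach1 at 19-20 dpp were thus not shown to differ from those at 16-17 dpp.

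Among the partners of GABPA, 4 of 7 listed genes could be tested, and none was called by limma in Ts65Dn against the mean of WT and Ts1Cje, with 2 at an unadjusted p under 0.05, as 32.4% of all probes were. Gabpb1, which encodes the main activating partner subunit, was called against Ts1Cje at 19-20 dpp, with 10.91 ± 0.25 in Ts65Dn, 10.29 ± 0.33 in Ts1Cje and 10.38 ± 0.20 in WT (SD, n = 3 each). The difference of 0.62 had a limma adjusted p of 0.0466, where 7.30% of all probes were called higher. That call ended without any of 4 single arrays, Ts1Cje 19-20 dpp replicate 1 among them. With age in WT, Gabpb1 fell by 0.84 (SE 0.19, limma adjusted p = 0.00387) and Sp1, a factor that acts beside GABP on many promoters, fell by 0.78 (adjusted p = 0.0190), while Gabpb2, the alternative partner subunit, rose by 1.26 (SE 0.33, adjusted p = 0.00849). Calls with age in WT were common, with 28.1% of all probes called lower and 18.5% higher. In Ts65Dn, Gabpb1 was −0.05 with age (adjusted p = 0.879). Its change with age in Ts65Dn minus that in WT was 0.79 and was not called by limma, where 0% of all probes were called. The 2 partner subunits therefore moved in opposite directions with age in WT, and in Ts65Dn against the mean of WT and Ts1Cje they were at 0.16 for Gabpb1 and −0.27 for Gabpb2, neither called.

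Of 20 genes listed as GABP targets, 6 could be tested. In Ts65Dn against the mean of WT and Ts1Cje 2 of them were called higher, Robo4 and Utrn, where 2.25% of all probes were called higher. Of the 6 targets 3 had an unadjusted p under 0.05, against 32.4% of all probes. The median over the 6 was 0.39, against 0.05 over all probes. Robo4, a receptor of vascular cells whose promoter GABP is known to bind in human endothelial cells, was higher by 0.76 (SE 0.18, limma adjusted p = 0.0392), with means of 11.12 in Ts65Dn, 10.30 in Ts1Cje and 10.24 in WT at 19-20 dpp. Utrn, which encodes the dystrophin relative utrophin, was higher by 0.50 (SE 0.13, limma adjusted p = 0.0464), with means of 8.58 in Ts65Dn, 8.11 in Ts1Cje and 8.20 in WT at 19-20 dpp. Both calls are near the threshold, and each ended when any 1 of 11 arrays was left out. The endothelial marker Eng was 1.43 higher in Ts65Dn than in WT at 19-20 dpp (limma adjusted p = 0.0352), where 1.80% of all probes were called higher. The other tested endothelial marker, Pecam1, was 0.26 higher and not called (limma adjusted p = 0.499). Against Ts1Cje neither was called. The summed intensity of the 2 was 485.8 to 663.1 in Ts65Dn, 237.4 to 485.3 in Ts1Cje and 203.4 to 414.0 in WT. The part of these markers in the difference of Robo4 was not tested. Cox5b, a subunit of cytochrome c oxidase, was −0.06 (SE 0.08, adjusted p = 0.560). With age in WT, where 28.1% of all probes were called lower, 3 of the 6 were called lower and 1 was above 0. The called falls were those of Robo4 by 1.20 (limma adjusted p = 0.00588), Zfx, an X-linked zinc finger factor, by 0.94 (adjusted p = 0.0127) and Skp2, a ubiquitin ligase subunit for cell cycle inhibitors, by 0.89 (adjusted p = 0.0167).

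Of the partners, competitors and controllers of BACH1, 3 of 11 could be tested. None was called by limma in Ts65Dn against the mean of WT and Ts1Cje, and all 3 had an unadjusted p under 0.05, against 32.4% of all probes. Bach2, the closest relative of Bach1, was 7.96 ± 0.22 in Ts65Dn, 6.59 ± 0.57 in Ts1Cje and 7.35 ± 0.32 in WT at 19-20 dpp. It was called against Ts1Cje, by 1.37 (SE 0.29, limma adjusted p = 0.0147), where 7.30% of all probes were called higher, but not against WT (0.61, adjusted p = 0.167). The call ended without Ts1Cje 19-20 dpp replicate 1, as it did without Ts65Dn 19-20 dpp replicate 2 or 3. Mafg, a small MAF partner, was 0.83 higher in Ts65Dn than in WT at 19-20 dpp (SE 0.30, limma adjusted p = 0.0954). All 3 genes were called lower with age in WT, against 28.1% of all probes, Mafg by 1.08 (limma adjusted p = 0.0109), Nfe2l1, an activator that competes with BACH1 for the same elements, by 0.90 (adjusted p = 0.00472) and Bach2 by 0.82 (adjusted p = 0.0303).

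BACH1 is a repressor, and 7 of 18 listed targets could be tested. Without a replicate block none was called lower or higher by limma in any of the 5 comparisons of Ts65Dn, in which 1 to 3 of the 7 had an unadjusted p under 0.05, against 5.08% to 32.4% of all probes. In Ts65Dn against the mean of WT and Ts1Cje their median was 0.26, and 6 of the 7 were above 0, with Gclm, a subunit of the glutathione-synthesising ligase, at −0.12 (SE 0.10, adjusted p = 0.378) and Ftl1, the ferritin light chain, at 0.53 (SE 0.19, adjusted p = 0.0898). At 19-20 dpp Ftl1 was 13.87 ± 0.36 in Ts65Dn, 12.98 ± 0.74 in Ts1Cje and 13.12 ± 0.22 in WT. With age in WT all 7 were below 0 and 5 were called lower, against 28.1% of all probes. The largest called falls were those of Ftl1 by 1.17 (limma adjusted p = 0.00861), Srxn1, which repairs peroxiredoxins, by 1.14 (adjusted p = 0.00664) and Gapdh, a glycolytic enzyme, by 0.92 (adjusted p = 0.0216). Hmox1, the best known BACH1 target, was not named by a tested probe.

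The enzymes that set the mark USP16 removes showed no shared direction. Of 22 listed H2A ubiquitin ligase genes 9 could be tested, and none was called by limma in Ts65Dn against the mean of WT and Ts1Cje, with 4 at an unadjusted p under 0.05, against 32.4% of all probes, and a median of 0.05, as over all probes. Bmi1, a Polycomb subunit that stimulates the ligase, was −0.11 (SE 0.14, limma adjusted p = 0.587). Rnf2, the catalytic ligase subunit, was detected on at most 1 of 3 arrays in each group, so no difference is given for it. Cbx8, a reader subunit of Polycomb repressive complex 1, was called against Ts1Cje at 19-20 dpp, where 7.30% of all probes were called higher, with 9.70 ± 0.19 in Ts65Dn, 8.76 ± 0.46 in Ts1Cje and 9.22 ± 0.34 in WT (difference 0.94, limma adjusted p = 0.0383). That call ended without any of 4 single arrays, again including Ts1Cje 19-20 dpp replicate 1. With age in WT 2 of the 9 were called higher and 3 lower, where 18.5% of all probes were called higher and 28.1% lower. Cbx7, another reader subunit, rose by 1.63 (SE 0.27, limma adjusted p = 0.000718), while Pcgf3, a subunit of a variant complex, fell by 1.35 (adjusted p = 0.0115) and Ubr2, a ligase needed for meiosis in male mice, fell by 1.25 (adjusted p = 0.0133). Of 15 listed H2A deubiquitinases and partners 4 could be tested, and none was called by limma in the 5 comparisons of Ts65Dn, with at most 2 at an unadjusted p under 0.05, against at most 32.4% of all probes. Herc2, a ligase of the DNA damage response, was 0.16 in Ts65Dn against the mean of WT and Ts1Cje (SE 0.13, adjusted p = 0.372). With age in WT, Brcc3, a deubiquitinase subunit of the BRCA1-A complex, fell by 1.24 (limma adjusted p = 0.0139) and Usp12, an H2A and H2B deubiquitinase, fell by 0.68 (adjusted p = 0.0444). Of the list genes named here with age in WT, Mafg, Bach2, Gapdh, Pcgf3, Ubr2, Brcc3, Usp12, Sp1, Zfx and Skp2 were not called without WT 19-20 dpp replicate 1, and all of these but Pcgf3 were also not called without at least 1 other WT array.

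The replicate numbers were taken to pair arrays at 19-20 dpp only, but the replicate block was fitted over both ages together. It thus also tied arrays of the earlier age, and a block for 19-20 dpp alone was not tested. With this block, more list genes were called by limma at 19-20 dpp, as were more of all probes. Against WT, where 13.0% of all probes were called higher, these were Gabpb1 of 4 GABP partners, Robo4 of 6 GABP targets, all 3 of the BACH1 partners and competitors, and the ferritin genes Ftl1 and Fth1 of 7 BACH1 targets. Of the 9 H2A ligase genes Ubr2 was called higher and Cbx7 lower against WT, where 10.8% of all probes were called lower. Against Ts1Cje, where 15.5% were called higher, they were Gabpb1, Skp2 and Robo4, all 3 BACH1 partners and competitors, Ftl1, and Pcgf5, Cbx8 and Ubr2 of the H2A ligases. No deubiquitinase of the list was called in either comparison with the block.

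**Figure D4:**
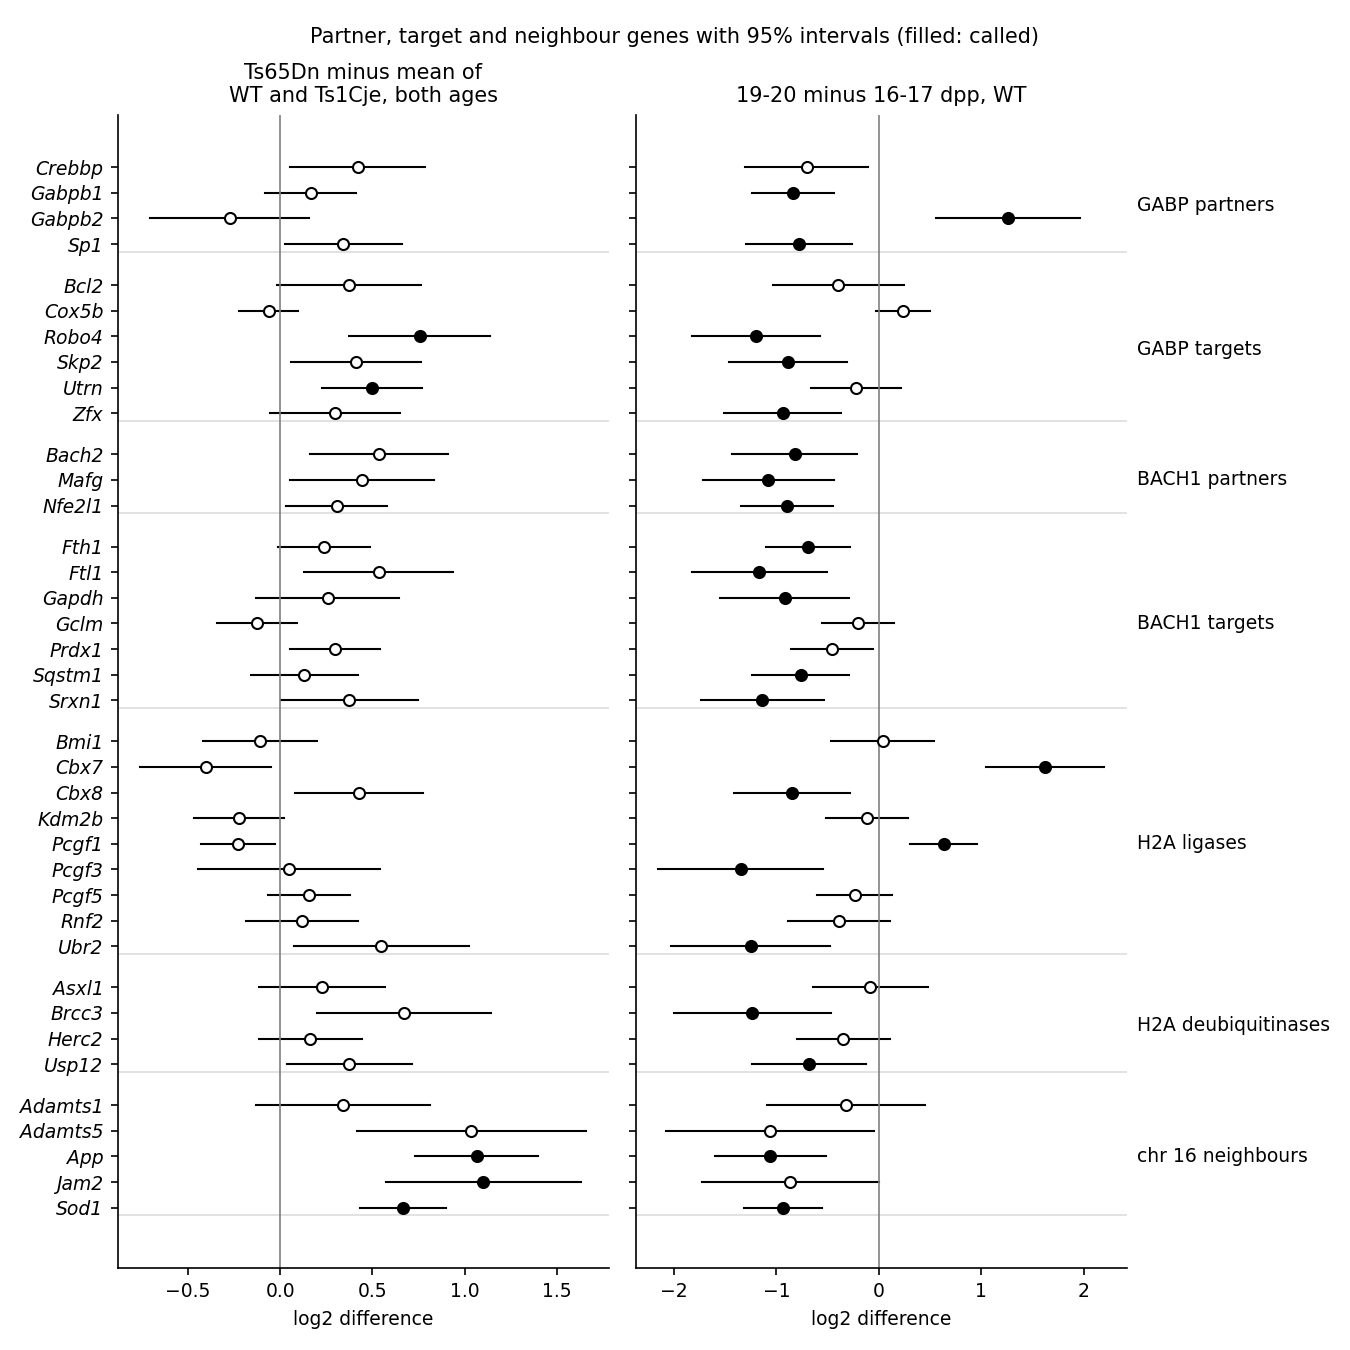
Log2 differences with 95% intervals of the tested genes of 7 lists, in Ts65Dn minus the mean of WT and Ts1Cje over both ages (left) and at 19-20 minus 16-17 dpp in WT (right). Filled points are called by limma at an adjusted p under 0.05. In the left panel 5 genes are filled, Robo4 and Utrn among GABP targets and App, Jam2 and Sod1 among chromosome 16 neighbours, and in the right panel most filled points lie below 0.

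The neighbours on chromosome 16 give the setting. Gabpa lies between Jam2 and App, and Usp16 and Bach1 lie between Adamts5 and Sod1. Of 17 listed neighbours 5 could be tested. All 5 were above 0 in Ts65Dn against the mean of WT and Ts1Cje, with a median of 1.04 against 0.05 over all probes. Of the 5, 3 were called higher, as were 2.25% of all probes. App, the amyloid precursor gene, was higher by 1.07 (limma adjusted p = 0.0141, not called without Ts65Dn 19-20 dpp replicate 2), Jam2, a junctional adhesion molecule, by 1.10 (adjusted p = 0.0347, a call that ended without any 1 of 9 arrays) and Sod1, a superoxide dismutase whose additional copy in Ts1Cje is disrupted, by 0.67 (adjusted p = 0.0190, not called without any of 3 single Ts65Dn arrays). At 19-20 dpp 2 of the 5 were called higher against WT, as were 1.80% of all probes. These were App by 1.39 (limma adjusted p = 0.0179) and Sod1 by 1.08 (adjusted p = 0.0138). Against Ts1Cje at that age, where 7.30% of all probes were called higher, App was called by 1.26 (limma adjusted p = 0.0130), Sod1 by 0.94 (adjusted p = 0.00983) and Adamts5, a secreted aggrecanase, by 1.72 (adjusted p = 0.0357). Each of these 5 calls ended without 2 to 4 single arrays, and that of Adamts5 ended without Ts1Cje 19-20 dpp replicate 1. The 0.82 of Gabpa and 1.03 of Bach1 fall within the range of these 5, from 0.34 for Adamts1, which was not detected in WT or Ts1Cje at 19-20 dpp, to 1.10, and the −0.08 of Usp16 lies below it. With age in WT, where 28.1% of all probes were called lower, App fell by 1.06 (limma adjusted p = 0.00541) and Sod1 fell by 0.94 (adjusted p = 0.00153), as Gabpa and Bach1 did.

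The likeness of other genes was measured by Pearson's r over 18 arrays among 5161 other named genes, as a description, since all genes share the 6 groups. Gabpa and Bach1 were alike, with r of 0.93, whereas Usp16 had r of −0.56 with Gabpa and −0.66 with Bach1. The genes most like Gabpa were Zdhhc14 (0.95), Bach1, Pcbp4 (0.92) and Ptbp3 (0.92), and the least like were Papln (−0.89) and Ccdc74a (−0.89). Ptbp3 was also the most like Bach1 (0.96), followed by Foxj3, Septin11 and the cohesin subunit gene Smc3 (each 0.96), and the least like were Xpo5 and Nkx6-2 (each −0.96). The most like Usp16 were Lins1 (0.89), Baiap2, Smim14 and Gfap (each 0.87), and Msi2 was among the least like (−0.94). After each group's mean was subtracted, so that only the spread between replicates was left, Gabpa and Bach1 had r of 0.47, Usp16 and Gabpa −0.26, and Usp16 and Bach1 −0.55. By this measure Gabpa was most like Nus1 (0.83), Mtmr3 (0.82), Socs4 (0.81) and Neurl1a (0.81), and Bach1 most like Rnf44, Otud5, Klf6 and Ndor1 (0.93 to 0.92). Usp16 was most like Trim39 (0.93), Taok2, Gramd1b and Arhgef12 (0.91 to 0.89). None of the genes most like a member by group pattern was among those most like it within groups, where 5161 genes were compared over the residuals of 18 arrays. The array that stood apart, Ts1Cje 19-20 dpp replicate 1, had the highest Usp16 level (10.13) and the lowest Bach1 level (6.18) of the 18. The values of r were not computed without it.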

How the data were processed

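Total RNA was biotin-labelled and hybridised to 18 bead arrays. For each probe, the deposited scanner output lists a mean signal intensity and a detection p-value, and the signal is neither background-subtracted nor normalised. BeadStudio is named in the submitters' processing notes, with no version. The authors' deposited series table, used as an alternative, holds log2 values whose columns share 1 median, minimum and maximum.

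Intensities were background-corrected from the detection p-values (limma nec, offset 16), quantile-normalised and put on the log2 scale, which understates folds near background. Of 46657 probes 252 controls were left out, and the 21341 detected on at least 3 arrays were tested. One limma model with 6 group terms was fitted, adjustment over all tested probes followed Benjamini and Hochberg, and a call is an adjusted p under 0.05. The fit was run on simulated data with independent noise on each array, which cannot show how calls behave where arrays deviate together. Fits used limma 3.58.1 with statmod 1.5.0 under R 4.3.3. Tables and figures used pandas 2.3.3, numpy 2.4.6 and matplotlib 3.10.9 under python 3.11.15.

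Probes were named through padded gene numbers (9796 of 11857 were in the RefSeq table of GRCm38.p6) or RIKEN clone names, and the brightest tested probe stood for a gene, so 28.0% of tested probes have a name. Members, gene lists and comparisons were chosen with earlier results of these data known. Named list genes are those called in Ts65Dn comparisons (at most 4 per list) or with age in WT (the 3 largest), and a fixed set of partners. At 19-20 dpp the deviations of same-numbered arrays correlated over 0.1 in every pair between genotypes (lowest 0.18), so the numbers were taken to pair those arrays. At 16-17 dpp and between ages of 1 genotype, same-numbered arrays did not correlate over 0.1 in every pair. Between ages of different genotypes they did for some groups and not for others. For WT 16-17 dpp with Ts65Dn 19-20 dpp r was 0.42 to 0.62. The pairing comes from the data, as the labels name no shared litter or batch. The replicate block was fitted over both ages, so it also tied arrays whose numbers were not taken to pair them. Array number limits the precision.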

Additional observations from a re-analysis of the deposited data

How the results depend on the processing

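Of 306 values under other settings 277 kept their direction and side of the threshold, as did 316 of 342 with 1 array left out. Array weights brought calls for Bach1 with age in Ts65Dn (−0.82), in Ts65Dn against Ts1Cje (0.98) and against WT (0.78) at 16-17 dpp, for Usp16 with age in WT (0.84) and against Ts1Cje at 19-20 dpp (−0.47), and for the interaction of age with Ts65Dn against WT (Gabpa 0.60, Usp16 −0.91) and against the mean of WT and Ts1Cje (Gabpa 0.60, Usp16 −0.97). They turned the sign of uncalled values: Ts1Cje against WT for Bach1 (−0.20 at 16-17 and 0.037 at 19-20 dpp) and Usp16 (0.0063 at 16-17 dpp), the Ts1Cje interaction for Bach1 (0.24) and Ts65Dn against both for Usp16 (0.076). With the weights 44.2% of all probes were called with age in Ts65Dn, 62.8% with age in WT and 33.5% against Ts1Cje at 19-20 dpp. The share was 0.572% against Ts1Cje and 2.29% against WT at 16-17 dpp, and 24.5% and 25.4% for the 2 interactions. The highest weight, 7.42, was that of Ts65Dn 19-20 dpp replicate 3, against 0.523 and 1.01 for the others of its group. A fit of the compared groups alone called Bach1 with age in Ts65Dn (−0.71), and did not call Ts65Dn against Ts1Cje at 19-20 dpp (Gabpa 1.11, Bach1 1.37) or Usp16 with age in Ts1Cje (1.04). Median scaling gave 0.0023 for Gabpa in Ts1Cje against WT at 16-17 dpp. The undetected Gabpa probe, in a fit of all probes, gave uncalled values of 0.33 for Ts65Dn against both, 0.30 against Ts1Cje and 0.19 against WT at 19-20 dpp, −0.28 and −0.20 with age in Ts1Cje and WT, and −0.21 and −0.17 for the Ts65Dn interactions against WT and against both. At 16-17 dpp that probe gave uncalled values of 0.40 for Ts65Dn against WT and 0.44 against Ts1Cje. The causes were not tested.

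With 1 array left out, Ts65Dn against both ran from 0.75 to 0.92 for Gabpa, 0.93 to 1.10 for Bach1 and −0.13 to 0.0069 for Usp16. At 19-20 dpp the range against WT was 0.86 to 1.19 for Gabpa and 1.03 to 1.37 for Bach1, and against Ts1Cje 0.97 to 1.30 for Gabpa and 1.10 to 1.58 for Bach1. Ts1Cje against WT ran from −0.16 to 0.12 for Gabpa, −0.16 to 0.24 for Bach1 and −0.21 to 0.25 for Usp16 at 16-17 dpp, and from −0.35 to 0.14 for Bach1 at 19-20 dpp. The Ts1Cje interaction ran from −0.23 to 0.055 for Gabpa and −0.41 to 0.071 for Bach1. Usp16 with age ran from 0.50 to 0.94 in WT and −0.15 to 0.055 in Ts65Dn.

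The replicate block made a call of Usp16 in Ts65Dn against Ts1Cje at 19-20 dpp (−0.70). It also made calls between ages of 1 genotype, where the numbers were not taken to pair arrays: Bach1 in Ts65Dn (−0.71) and Usp16 in WT (0.67). It changed no other call of the 3 genes. The share of all probes called moved widely, from 0.0234% to 43.7% in Ts65Dn against both and from 0% to 49.1% against WT at 19-20 dpp. Of 294 counts of called list genes 36 moved by over 1.5 times, for example 0 to 5 neighbours in Ts65Dn against WT at 19-20 dpp (2 as reported). Bach1 is the member that signal over background limits.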
